A study of Mus musculus with 18 samples.

Results

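The D-type cyclins, the 2 kinases they activate and the inhibitors that hold those kinases back were followed in mouse bone marrow-derived macrophages (BMDMs). The 10 genes were chosen by name, with earlier results of these data known. They are Ccnd1, Ccnd2 and Ccnd3 (cyclins D1, D2 and D3), Cdk4 and Cdk6 (their partner kinases), Cdkn1a and Cdkn1b (the Cip/Kip inhibitors p21 and p27), and Cdkn2b, Cdkn2c and Cdkn2d (the INK4 inhibitors p15, p18 and p19). All 10 were found among the 24485 genes of the tables, and all 10 received an adjusted p in each of the 10 comparisons made.

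RNA-seq was done on 18 libraries in 6 groups of 3, with libraries 1, 2 and 3 of each group made from mice 1, 2 and 3. Every group, the controls included, came from Il10-/- mice on the C57BL/6J background (males of 12 weeks by the study's methods), so the cells made no IL-10 of their own and no wild-type cells were analysed here. The macrophages were grown for 6 days with L929 cell conditioned medium, a source of the macrophage growth factor CSF1. Cells then received (+)-JQ1 (500 nM), an inhibitor of the BET bromodomain proteins that read acetylated chromatin, the anti-inflammatory cytokine IL-10 (10 ng/mL) or neither, and 12 hours later either lipopolysaccharide (LPS, 50 ng/mL), the bacterial product that activates macrophages through TLR4, or PBS for 4 hours. The groups are called Unstimulated, JQ1, IL-10, LPS, LPS + JQ1 and LPS + IL-10. The labels describe the cells that received neither agent as untreated, while the study's methods name a vehicle control.

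A D-type cyclin binds CDK4 or CDK6, and the active pair phosphorylates the retinoblastoma protein, which releases E2F factors and lets a cell pass from G1 into S phase. The INK4 proteins bind CDK4 and CDK6 and keep the cyclin away, whereas p21 and p27 act on cyclin-CDK complexes and at their strongest on those that hold CDK2. In macrophages, CSF1 drives the cycle through the D-type cyclins, and LPS is known to arrest it.

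Expected counts summed to between 6781952 and 28289498 per library. All 9 macrophage markers in the table were at 1 TPM or more in each group (TPM, a level scaled for transcript length and to a fixed total per library), and together they stood at 15690 to 17130 TPM in LPS, 24030 to 25840 in Unstimulated and 29510 to 29690 in JQ1 libraries. Most of that sum was Lyz2, at a mean of 18407 TPM in Unstimulated, 24665 in JQ1 and 10214 in LPS libraries. Csf1r, the CSF1 receptor, stood at a mean of 1622 TPM in Unstimulated, 1194 in JQ1 and 613 in LPS libraries (both genes were picked out after their values were seen). In the DESeq2 test described below, which scales libraries otherwise than TPM, the 9 markers did not move alike. JQ1 raised 3 and lowered 5 of them, and LPS raised 3 and lowered 2. With LPS, the median log2 fold change over genes with a mean of at least 10 normalised counts was -0.03 in DESeq2 and -0.70 on log2(TPM + 1). Markers of other cells were low: 1.29 to 16.91 TPM for 7 neutrophil genes (Ly6g at 0 in every library), 0.10 to 5.34 for 5 B cell genes, 0.06 to 4.46 for 4 T cell genes, 0.27 to 3.06 for 5 dendritic cell genes, 0.07 to 1.07 for 5 mast cell and basophil genes, 0 to 1.33 for 5 erythroid genes and 1.90 to 10.29 for 5 stromal genes. Some moved with the groups. The summed B cell markers were lower in JQ1 (0.20 to 0.50 TPM) than in Unstimulated libraries (2.34 to 5.34), as were the neutrophil markers (1.29 to 4.67 against 6.06 to 16.91). The summed T cell markers were higher in LPS (3.88 to 4.46 TPM) and LPS + IL-10 (2.94 to 3.15) than in Unstimulated (0.12 to 0.40) or LPS + JQ1 libraries (0.22 to 0.63), with 1 of the 4 genes at 1 TPM or more. The T cell gene at 1 TPM or more was Lck, at a mean of 0.11 TPM in Unstimulated and 4.11 in LPS libraries. Cd3d, Cd3e and Cd3g stood at 0.147 TPM or less in each group. The B cell fall was mostly in Cd79b, at a mean of 3.52 TPM in Unstimulated and 0.11 in JQ1 libraries. These genes were likewise picked out after their values were seen. The part of the markers of other cells in the results was not tested. LPS library 3 and LPS + IL-10 library 3 stood apart from the other libraries of their groups (chi-square per degree of freedom 26.105 to 30.486, beside 11.208 or less in the other pairs). Without the former, 5 of the calls on the 10 genes changed (Cdkn2b with LPS passed, Cdkn2c and Cdkn2d in LPS + JQ1 against LPS, the Cdkn2d interaction with JQ1 and the Ccnd3 interaction with IL-10 did not), and without the latter none did. These are bulk libraries, in which fewer cells that express a gene and less of its RNA per cell cannot be told apart.

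The log2 fold changes are from DESeq2 on rounded expected counts, with its median-of-ratios scaling, and a gene passed the test at an adjusted p under 0.05 over all genes. LPS against Unstimulated changed 9 of the 10 genes, 5 higher and 4 lower. Across all genes the test passed 64.5% of 14965, with 31.6% higher and 32.9% lower, and the median log2 fold change was 0.48 over the 10 genes and -0.07 over all tested. JQ1 against Unstimulated changed 6 of the 10 (4 higher, 2 lower), beside 45.7% of all genes (21.9% higher, 23.7% lower), with medians of -0.08 and -0.001 (members and all genes). IL-10 against Unstimulated changed 1 of the 10 and that was lower, beside 2.81% of all genes (1.80% higher, 1.01% lower), with medians of -0.06 and -0.006. None of the 10 was called higher by IL-10 alone in DESeq2, where 1 had an unadjusted p under 0.05, or in edgeR, which called 0 in either direction. LPS + JQ1 against LPS changed 7 of the 10 (4 higher, 3 lower), beside 57.3% of all genes (24.4% higher, 32.9% lower), with medians of 0.07 and -0.11. LPS + IL-10 against LPS also changed 7 of the 10 (3 higher, 4 lower), where 17.2% of all genes passed (8.38% higher, 8.81% lower), with medians of -0.26 and -0.02.

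The remaining comparisons asked how LPS acted in treated cells, and how JQ1 and IL-10 differed. LPS + JQ1 against JQ1 changed 9 of the 10 (5 higher, 4 lower), beside 58.6% of all genes (27.6% higher, 31.0% lower), with medians of 0.22 and -0.08. LPS + IL-10 against IL-10 changed 9 of the 10 (5 higher, 4 lower), beside 67.0% of all genes (33.2% higher, 33.8% lower), with medians of 0.42 and -0.05. LPS + JQ1 against LPS + IL-10 changed 5 of the 10 (2 higher, 3 lower), beside 55.3% of all genes (23.8% higher, 31.6% lower), with medians of -0.105 and -0.10. The interaction of LPS and JQ1, which is the JQ1 effect with LPS minus the JQ1 effect without it, passed for 7 of the 10 (4 above 0, 3 below), beside 41.5% of all genes (17.7% above, 23.8% below), with medians of -0.009 and -0.05. The same interaction for IL-10 passed for 3 of the 10 (2 above 0, 1 below), beside 7.44% of all genes (4.00% above, 3.44% below), with medians of -0.04 and -0.004. Comparisons with a group in common share its libraries, so they are not independent.

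**Figure D1:**
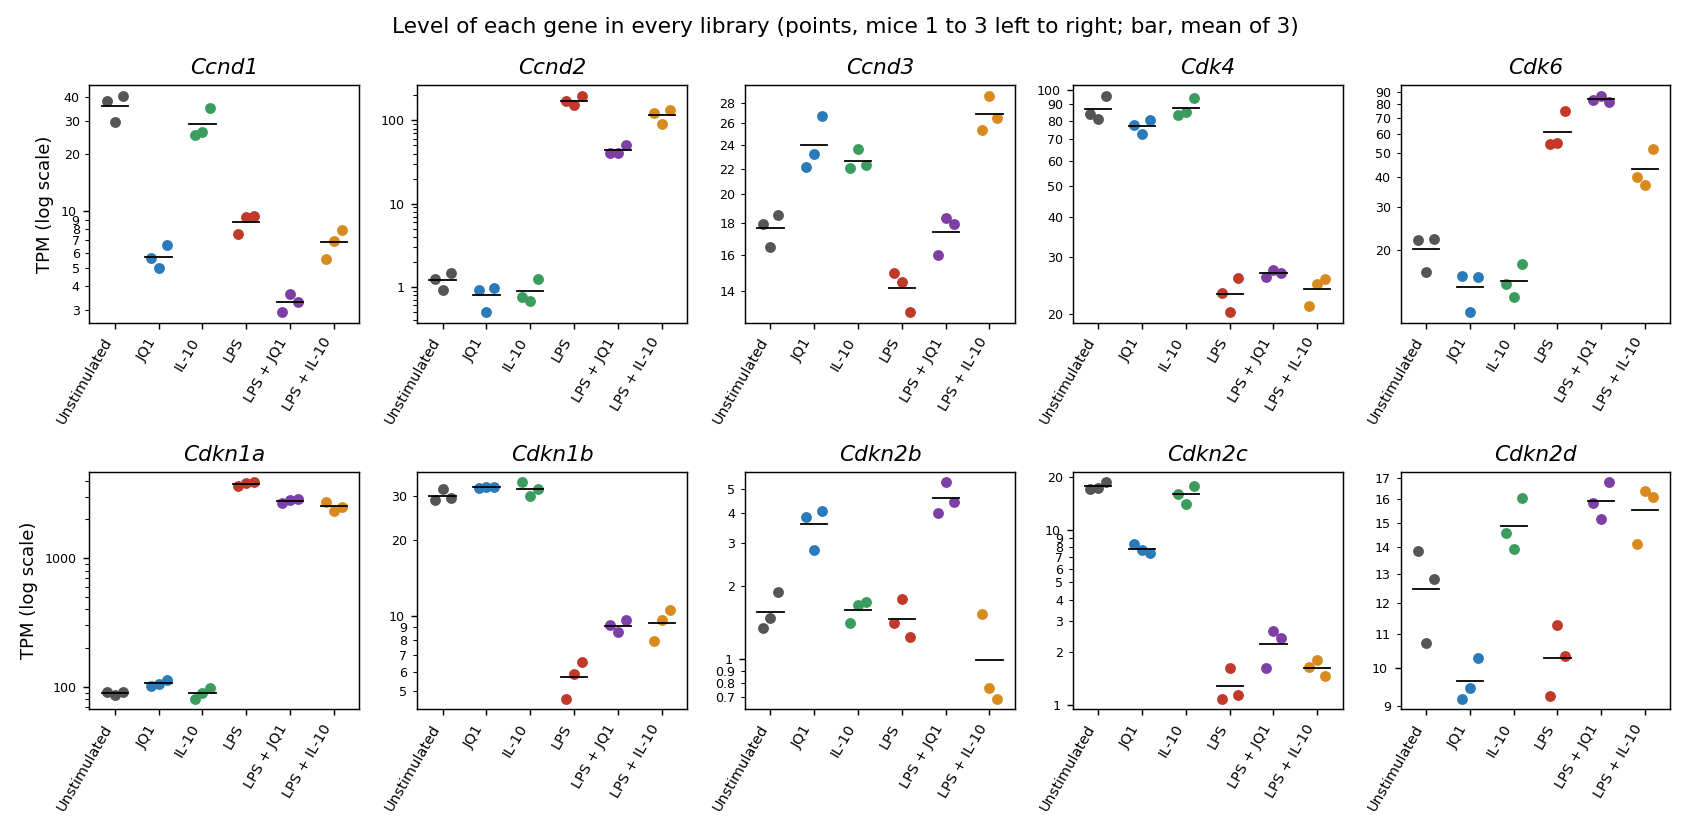
Level of the 10 genes (TPM, log axis, one panel per gene with its own range) in the 18 libraries, with a point for each library, ordered by mouse 1, 2 and 3, and a bar at the mean of 3. With LPS, Ccnd2 moved from between 0.92 and 1.47 TPM to between 152.86 and 198.08 TPM and Cdkn1a from between 86.12 and 92.01 TPM to between 3653 and 3872 TPM, while Ccnd1, Cdk4, Cdkn1b and Cdkn2c moved down in TPM and in normalised counts.

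Ccnd1 encodes cyclin D1, a well-known target of growth factor signals, and lies on the minus strand at chr7:152115836-152125774 (mm9). It was the most abundant D-type cyclin mRNA in Unstimulated macrophages, at 38.0, 29.5 and 40.7 TPM in mice 1, 2 and 3. JQ1 libraries held 5.60, 4.99 and 6.61 TPM, all below every Unstimulated library, and IL-10 libraries held 25.2, 26.3 and 35.2 TPM, which overlapped the Unstimulated range. With LPS the level was 7.59, 9.26 and 9.40 TPM, with LPS + JQ1 2.92, 3.62 and 3.31 TPM, and with LPS + IL-10 5.57, 6.93 and 7.96 TPM. From highest to lowest the group means ran Unstimulated, IL-10, LPS, LPS + IL-10, JQ1 and LPS + JQ1, and neighbours in that order overlapped in TPM except at the steps from IL-10 to LPS and from JQ1 to LPS + JQ1. In normalised counts LPS (366, 423 and 391.7) and LPS + IL-10 (250, 287 and 312) did not overlap.

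JQ1 lowered Ccnd1 in cells without LPS by a log2 fold change of -2.45 ± 0.14 (SE, adjusted p = 3.34e-65), which is 5.47-fold lower. LPS lowered it by -1.27 ± 0.14 (adjusted p = 4.07e-20). LPS + JQ1 stood below LPS by -1.72 ± 0.16 (adjusted p = 2.19e-27), and the interaction was 0.73 ± 0.21 (adjusted p = 0.00192), so the JQ1 difference was smaller with LPS than without it. LPS + IL-10 stood below LPS by -0.47 ± 0.14 (adjusted p = 0.00864). That call was lost without LPS library 2 (adjusted p = 0.0665) or LPS + IL-10 library 1 (0.0788), and also under total-count scaling (0.0676) and on log2(TPM + 1) (0.169). IL-10 alone gave -0.38 ± 0.13, which did not pass (adjusted p = 0.0944) but passed with the mouse as a block (0.0128).

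Ccnd2, which encodes cyclin D2, lies on the minus strand at chr6:127075797-127101066 (mm9) and gave the largest change of the 10 genes. Unstimulated libraries held 50.1, 38.9 and 58.3 normalised counts (1.25, 0.92 and 1.47 TPM), and LPS libraries 12658, 10791 and 12777 (169, 153 and 198 TPM). No LPS library came near an Unstimulated one, and the log2 fold change was 7.90 ± 0.20 (238-fold, 95% interval 7.51 to 8.29, adjusted p given as 0 by DESeq2). On the TPM scale, LPS took Ccnd2 from the lowest of the 10 genes to the 2nd highest, behind Cdkn1a. With JQ1 alone the counts were 42.4, 24.6 and 44.9 and with IL-10 alone 29.4, 27.7 and 47.4, which overlapped the Unstimulated libraries in both cases and did not pass (adjusted p = 0.128 and 0.232). The JQ1 value, -0.43, was -0.61 with total counts and passed there (adjusted p = 0.0225).

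Both agents lowered Ccnd2 in LPS-treated cells. LPS + JQ1 libraries held 2382, 2192 and 2824 normalised counts, well below every LPS library, at a log2 fold change of -2.29 ± 0.16 (4.90-fold lower, adjusted p = 4.63e-43). LPS + IL-10 libraries held 8638, 5863 and 7994, also below all LPS libraries, at -0.69 ± 0.16 (1.61-fold lower, adjusted p = 3.60e-04), a call lost on log2(TPM + 0.1) (0.108). LPS + JQ1 was below LPS + IL-10 by -1.60 ± 0.16 (adjusted p = 1.34e-21). The interaction with JQ1 was -1.86 ± 0.29 (adjusted p = 1.38e-09), whereas that with IL-10 was -0.12 (95% interval -0.67 to 0.44, adjusted p = 0.934). Ccnd2 still rose with LPS in JQ1-treated cells, by 6.04 ± 0.21, and in IL-10-treated cells, by 7.78 ± 0.20.

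Ccnd3 encodes cyclin D3 and lies on the plus strand at chr17:47642000-47736632 (mm9). Unstimulated libraries held 17.9, 16.5 and 18.5 TPM, JQ1 libraries 22.1, 23.2 and 26.7, and IL-10 libraries 22.0, 23.6 and 22.25. LPS libraries held 15.0, 14.5 and 12.98 TPM, LPS + JQ1 libraries 15.98, 18.3 and 17.97, and LPS + IL-10 libraries 25.4, 28.8 and 26.5. LPS + IL-10 had the highest mean of the 6 groups, overlapping only with JQ1, and LPS the lowest, below every library of the other groups. In normalised counts, whose scaling differs, LPS libraries (358, 330 and 269) lay above Unstimulated libraries (231, 223 and 236).

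IL-10 raised Ccnd3 in LPS-treated cells by 0.81 ± 0.11 (1.75-fold, adjusted p = 1.55e-11), the opposite sign to its change in Ccnd1 and Ccnd2. Without LPS, IL-10 gave 0.30 (95% interval 0.08 to 0.52, adjusted p = 0.154). The interaction of LPS and IL-10 was 0.50 ± 0.16 (adjusted p = 0.0213), and it no longer passed in 7 of the 12 fits that left out 1 library (adjusted p up to 0.110, without LPS library 3). JQ1 raised Ccnd3 without LPS by 0.64 ± 0.11 (1.56-fold, adjusted p = 7.26e-08). With LPS it gave -0.01 (95% interval -0.24 to 0.21), which turned to 0.36 under total-count scaling and passed there (adjusted p = 0.00247). Relative to the median over genes with a mean of at least 10 normalised counts, this value was 0.077 and 0.078 in that order. The direction of the LPS effect depended on the scaling: it was 0.46 ± 0.12 (adjusted p = 1.38e-04) with the median-of-ratios scaling and -0.47 with total-count scaling (6.63e-05).

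The makeup of the D-type cyclin mRNA differed between groups. Of the summed TPM of the 3 cyclins, Ccnd1 held 65.5% ± 2.2 (SD, n = 3) in Unstimulated libraries, Ccnd3 32.3% ± 2.5 and Ccnd2 2.19% ± 0.23. In JQ1 libraries Ccnd3 was the majority at 78.7% ± 2.0, with Ccnd1 at 18.7% ± 1.2. In LPS libraries Ccnd2 held 88.2% ± 1.7, and Ccnd1 4.49% ± 0.67. Ccnd2 remained the majority in LPS + JQ1 (67.7% ± 2.7) and in LPS + IL-10 (77.1% ± 4.5), and Ccnd3 made up 27.2% ± 2.1 and 18.3% ± 3.7 there. The summed level was 54.9 ± 7.1 TPM in Unstimulated, 30.5 ± 3.2 in JQ1, 196 ± 22 in LPS, 64.4 ± 6.3 in LPS + JQ1 and 149 ± 20 in LPS + IL-10. These shares are given as a description without a test of their own, and in all 3 mice the most abundant cyclin of a group was the same gene.

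**Figure D2:**
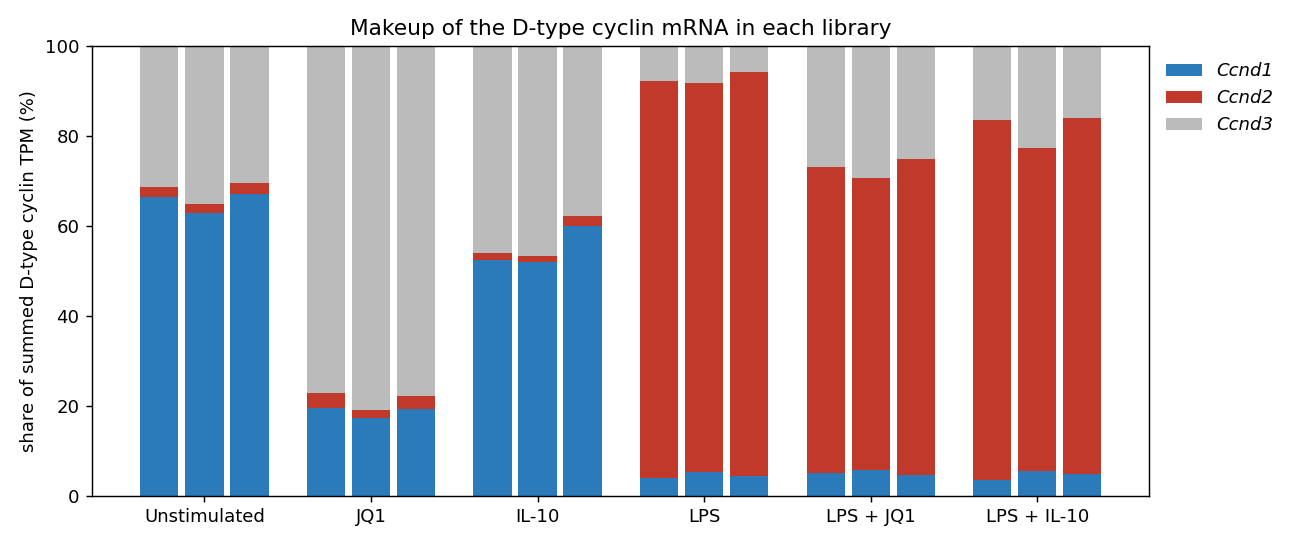
Share (%) of the summed D-type cyclin TPM that Ccnd1, Ccnd2 and Ccnd3 took in each of the 18 libraries (stacked bars, mice 1 to 3 left to right in each group). Ccnd1 was the largest part in Unstimulated (62.9 to 67.04%) and IL-10 libraries, Ccnd3 in JQ1 libraries, and Ccnd2 in every library with LPS.

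The kinases Cdk4 and Cdk6 moved in opposite directions with LPS. Cdk4, on the plus strand at chr10:126500590-126504976 (mm9), held 697, 709 and 787 normalised counts in Unstimulated libraries and 356, 298 and 344 in LPS libraries, with no overlap. Cdk6, on the plus strand at chr5:3343893-3523218 (mm9), held 1794, 1402 and 1778 without and 8281, 7924 and 9807 with LPS. The log2 fold changes were -1.15 ± 0.09 for Cdk4 (adjusted p = 2.75e-36) and 2.38 ± 0.14 for Cdk6 (5.22-fold, adjusted p = 1.74e-68). Per length, Cdk4 exceeded Cdk6 by 4.37 ± 0.56 to 1 (ratio of TPM, SD, n = 3) in Unstimulated libraries and the ratio was 0.378 ± 0.042 in LPS libraries. It stood above 1 in all 9 libraries without LPS (3.838 to 6.616) and below 1 in all 9 libraries with it (0.3124 to 0.6662).

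**Figure D3:**
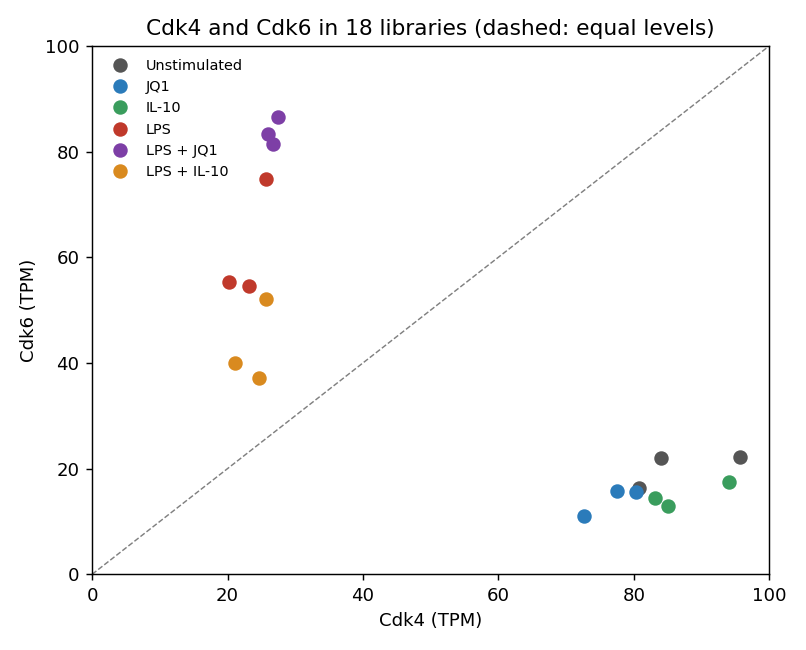
Cdk4 (x axis, TPM) against Cdk6 (y axis, TPM) in the 18 libraries, coloured by group, with a dashed line where the levels are equal. The libraries without LPS lie at the lower right, at 72.71 to 95.69 TPM of Cdk4, and those with LPS at the upper left, at 20.24 to 27.45 TPM of Cdk4.

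Neither agent changed Cdk4 by this test. JQ1 gave 0.02 (95% interval -0.14 to 0.18) without LPS and -0.08 (-0.27 to 0.11) with it, and IL-10 gave -0.06 (-0.21 to 0.10) without and -0.05 (-0.25 to 0.14) with it. With LPS, the JQ1 value turned to 0.30 under total-count scaling and passed there (adjusted p = 0.00726). The median over genes with a mean of at least 10 normalised counts was -0.09 with the median-of-ratios and 0.29 with the total-count scaling. Relative to it, Cdk4 stood at 0.012 and 0.011. Cdk6, by contrast, was lower with IL-10 in both settings. Its normalised counts with IL-10 alone were 1149, 1063 and 1353, all below the Unstimulated range, at -0.48 ± 0.14 (adjusted p = 0.0192), and it was the only member that IL-10 alone changed. It was not called by edgeR (adjusted p = 0.0639) or by limma on log2(TPM + 1) (0.362) and was lost without Unstimulated library 1 (0.111) or 3 (0.132) or IL-10 library 1 (0.152) or 2 (0.162), while the fit with the mouse as a block gave 2.67e-05.

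With LPS, the Cdk6 values under IL-10 were 5642, 4817 and 6415 normalised counts, again below every LPS library, at -0.62 ± 0.13 (adjusted p = 5.69e-05). JQ1 without LPS gave 1475, 1105 and 1441 at -0.31 ± 0.14, which missed the threshold (adjusted p = 0.0511) and passed with the mouse as a block (0.00282) and in edgeR (0.0471), among other settings. LPS + JQ1 libraries held 10004, 9486 and 9300, which overlapped the LPS libraries, at 0.15 (95% interval -0.12 to 0.41, adjusted p = 0.364). This depended on the scaling: in TPM the groups did not overlap (81.4 to 86.5 against 54.5 to 74.9), and LPS + JQ1 was called higher with total counts (0.52, adjusted p = 0.000621), on log2(TPM + 1) (0.45, 0.0227) and in the fit of the compared groups alone (0.25, 0.0233). JQ1 and IL-10 thus differed in their effect on Cdk6 in LPS-treated cells, with LPS + JQ1 above LPS + IL-10 by 0.77 ± 0.13 (adjusted p = 3.71e-08). The interaction of LPS and JQ1 was 0.46 ± 0.19 (adjusted p = 0.0426) and was lost in 8 of the 12 fits that left out 1 library (adjusted p up to 0.153, without JQ1 library 2).

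Exons of Cdk4 share 604 bases with Tspan31 on the opposite strand, in an annotation of the same build (GENCODE M1). The counting did not use strand by its default settings, so such a read could match either gene if the counted RefSeq transcripts overlap alike. Those overlaps were not examined. Expected counts, which need not be whole, were whole in every library for Cdk4 (903, 419 and 1174 in Unstimulated), Ccnd1 and Cdk6. For Ccnd3 they were not (299.39, 132.46 and 351.54 in Unstimulated). Whether reads were shared between the genes was not tested. Tspan31 stood at 67.1 TPM in Unstimulated and 50.8 TPM in LPS libraries. Ccnd1 shares 818 exon bases with Oraov1 (12.9 and 5.44 TPM), Ccnd3 shares 353 with Bysl (4.91 and 3.67 TPM), and Cdk6 shares 60 with Gm17590, for which no level was read. Ccnd2 shares no exon base with such a gene.

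Promoter sequences from RefSeq (GRCm38.p6) matched 8 of the 10 genes, in 11 entries, and Ccnd1 and Ccnd2 were not matched. Their coordinates are of that build and not of mm9. The 250 bases before the start are shown for the opposed pair Cdk4 and Cdk6 and for the second of 2 entries of Cdkn1a, the most abundant member, on the plus strand and 5′ to 3′. Capitals mark matches, on either strand, to the E-box CACGTG, the GC box GGGCGG (which reads CCGCCC on the other strand) and the TATA box TATAAA.
Cdk4, chr10:127063285-127063534: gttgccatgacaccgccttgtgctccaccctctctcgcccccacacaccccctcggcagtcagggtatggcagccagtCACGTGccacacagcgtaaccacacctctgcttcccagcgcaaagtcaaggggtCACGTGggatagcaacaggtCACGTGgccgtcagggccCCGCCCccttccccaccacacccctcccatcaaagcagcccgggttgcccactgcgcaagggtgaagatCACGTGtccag
Cdk6, chr5:3343643-3343892: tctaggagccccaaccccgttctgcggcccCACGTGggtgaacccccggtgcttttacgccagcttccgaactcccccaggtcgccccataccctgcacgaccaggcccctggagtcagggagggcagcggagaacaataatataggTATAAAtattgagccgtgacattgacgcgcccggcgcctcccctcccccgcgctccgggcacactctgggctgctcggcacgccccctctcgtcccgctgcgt
Cdkn1a, chr17:29093519-29093768: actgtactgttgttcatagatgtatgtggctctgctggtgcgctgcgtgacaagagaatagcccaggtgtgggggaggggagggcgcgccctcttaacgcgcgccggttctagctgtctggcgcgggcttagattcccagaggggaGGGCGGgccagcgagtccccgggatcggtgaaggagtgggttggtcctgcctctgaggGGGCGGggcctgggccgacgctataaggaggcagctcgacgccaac

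The Cdk4 promoter held 4 E-boxes, a number that 7 of 32851 promoters of the same length reach (0.0213%). The Cdk6 promoter held 1, as 6.02% of all promoters do with at least 1, and the only TATA box match of the 8 genes. That match lay at -103 to -98 from the start, and 12.4% of all promoters hold one anywhere in the window. No 2 matches in these windows shared a base. A GC box was found in 6 of the 8 genes, where a match in any entry of a gene counted. It was in 32.7% of all promoters, which are counted by entry, so the shares are not of like units. The kappaB motif, searched as the NF-kB consensus, was in none of the 11 entries and in 3.90% of all promoters. The member promoters held a median of 16 CG dinucleotides, beside 6 in all promoters. A match is a string of letters and does not show binding, and its absence from this window says nothing of the factor.

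Cdkn1a, which encodes p21, a p53 target and inhibitor of cyclin-CDK complexes, lies on the plus strand at chr17:29227924-29237667 (mm9). By mean TPM it was the most abundant of the 10 genes in all 6 groups, although without LPS its range overlapped that of Cdk4 in Unstimulated and IL-10 libraries. Unstimulated libraries held 92.0, 86.1 and 91.4 TPM and LPS libraries 3653, 3830 and 3872 TPM. In normalised counts these were 1140, 1126 and 1120 against 83949, 83769 and 77095, a log2 fold change of 6.18 ± 0.09 (72.3-fold, adjusted p given as 0 by DESeq2). In JQ1 libraries the counts were 1431, 1592 and 1608, all above the Unstimulated libraries, at 0.45 ± 0.10 (1.37-fold, adjusted p = 1.21e-05). In IL-10 libraries they were 972, 1130 and 1153, at -0.06 (95% interval -0.25 to 0.13), which did not pass.

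With LPS, the Cdkn1a level was lower with either agent. LPS + JQ1 libraries held 49125, 47023 and 50417 normalised counts and those of LPS + IL-10 58995, 46425 and 46971, and all 6 lay below the 3 LPS libraries. JQ1 gave -0.74 ± 0.09 (1.67-fold lower, adjusted p = 1.46e-15) and IL-10 -0.68 ± 0.09 (1.61-fold lower, adjusted p = 2.11e-12). The difference between the agents was -0.06 (95% interval -0.23 to 0.12, adjusted p = 0.636) and turned to 0.23 under total-count scaling, where it passed (0.00727). The median over genes with a mean of at least 10 normalised counts was -0.08 and 0.20 in that order. Relative to it, the Cdkn1a difference was 0.022 and 0.025. JQ1 thus raised Cdkn1a without LPS and lowered it with LPS, and the interaction was -1.19 ± 0.13 (adjusted p = 3.91e-18). That of IL-10 was -0.62 ± 0.13 (adjusted p = 9.91e-05).

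Cdkn1b, which encodes p27, lies on the plus strand at chr6:134870419-134875531 (mm9) and went the other way from Cdkn1a. Unstimulated libraries held 462, 536 and 465 normalised counts and LPS libraries 139, 165 and 168, at -1.61 ± 0.11 (3.05-fold lower, adjusted p = 5.31e-46). LPS + JQ1 libraries held 216, 185 and 215 and LPS + IL-10 libraries 219, 245 and 253, and each was above all LPS libraries and below all libraries without LPS. JQ1 raised Cdkn1b by 0.38 ± 0.12 with LPS (adjusted p = 0.00448) and by 0.33 ± 0.09 without it (0.00106), though the latter was 0.15 and did not pass under total-count scaling (0.181). The interaction of LPS and JQ1 was 0.05 (95% interval -0.25 to 0.35, adjusted p = 0.835), but passed at 0.60 with total counts (adjusted p = 0.000302) and at 0.50 on log2(TPM + 1) (0.00831). The median interaction over genes with a mean of at least 10 normalised counts was -0.05, 0.50 and 0.39 in that order. Relative to those medians, Cdkn1b stood at 0.101, 0.1 and 0.105. IL-10 raised it by 0.60 ± 0.12 with LPS (adjusted p = 1.33e-05) and gave 0.05 (95% interval -0.13 to 0.23) without, with an interaction of 0.55 ± 0.15 (adjusted p = 0.00560).

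The summed level of the 2 Cip/Kip genes followed Cdkn1a, at 120 ± 1.7 TPM in Unstimulated (SD, n = 3), 3791 ± 117 in LPS, 2807 ± 93 in LPS + JQ1 and 2541 ± 208 in LPS + IL-10. That of the 3 INK4 genes was 31.7 ± 2.0 TPM in Unstimulated, 21.0 ± 0.93 in JQ1, 13.05 ± 1.5 in LPS, 22.7 ± 1.1 in LPS + JQ1 and 18.2 ± 0.81 in LPS + IL-10. These sums are on the TPM scale, where the median log2 fold change with LPS was -0.70 on log2(TPM + 1). With LPS, mean Cdkn2d went from 12.5 to 10.3 TPM but from 97.9 to 139 normalised counts, while Cdkn2c was lower on both scales. The 3 INK4 genes differed among themselves.

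Cdkn2c, which encodes p18, lies on the minus strand at chr4:109333481-109339794 (mm9) and was the INK4 gene that fell with LPS. Unstimulated libraries held 192, 213 and 206 normalised counts, JQ1 libraries 112, 113 and 101 and LPS libraries 26.9, 32.1 and 18.4. LPS gave -2.96 ± 0.22 (7.80-fold lower, adjusted p = 1.09e-39) and JQ1 without LPS -0.90 ± 0.15 (1.87-fold lower, adjusted p = 2.07e-08). LPS + JQ1 libraries held 32.0, 47.4 and 43.1, which touched the LPS range, at 0.65 ± 0.26 (adjusted p = 0.0208). This call rested on single libraries: it was lost without LPS library 3 (adjusted p = 0.163), LPS + JQ1 library 2 (0.114) or LPS + JQ1 library 3 (0.0542). The JQ1 effect differed by LPS, with an interaction of 1.55 ± 0.30 (adjusted p = 1.22e-06). IL-10 gave -0.22 (95% interval -0.50 to 0.05) without LPS and 0.13 (-0.41 to 0.67) with it, and neither passed.

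Cdkn2b, which encodes p15 and is a known target of TGF-beta signals, lies on the minus strand at chr4:88952198-88956941 (mm9) and had the lowest counts of the 10. Its expected counts were 15, 8 and 24 in Unstimulated and 44, 30 and 44 in JQ1 libraries, and 16, 26 and 14 in LPS, 46, 59 and 44 in LPS + JQ1 and 17, 7 and 10 in LPS + IL-10 libraries. In normalised counts, all 6 libraries with JQ1 (29.6 to 62.1) lay above all 12 libraries without it (9.02 to 26.9). JQ1 raised Cdkn2b by 1.38 ± 0.33 without LPS (2.61-fold, adjusted p = 1.26e-04) and by 1.32 ± 0.31 with it (2.49-fold, adjusted p = 6.53e-05), with an interaction of -0.06 (95% interval -0.96 to 0.83). LPS + JQ1 exceeded LPS + IL-10 by 2.02 ± 0.35 (4.05-fold, adjusted p = 2.54e-08). LPS alone gave 0.69 ± 0.36, the only member that did not pass (adjusted p = 0.0805), though it did without LPS library 3 (0.85, adjusted p = 0.0484). LPS in JQ1-treated cells gave 0.63 ± 0.28 (adjusted p = 0.0410), a call lost when any of the 6 libraries was left out (adjusted p from 0.0516 to 0.163) with the mouse as a block (0.0554) and with total counts (0.25, adjusted p = 0.449).

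Cdkn2d, which encodes p19, lies on the minus strand at chr9:21092907-21095653 (mm9). Unstimulated libraries held 107, 87.9 and 98.5 normalised counts and LPS libraries 133, 155 and 129, with no overlap, at 0.49 ± 0.14 (adjusted p = 0.00124). As for Ccnd3, this direction turned under total-count scaling (-0.44, adjusted p = 0.00400). LPS + IL-10 libraries held 189, 205 and 188 and LPS + JQ1 libraries 180, 159 and 185, and each was above the 3 LPS libraries. IL-10 gave 0.47 ± 0.14 (adjusted p = 0.00495) and JQ1 0.32 ± 0.14 (adjusted p = 0.0356). The JQ1 call was lost without LPS library 1 (adjusted p = 0.107), LPS library 3 (0.144), LPS + JQ1 library 1 (0.102) or LPS + JQ1 library 3 (0.123). Without LPS, JQ1 gave -0.19 (95% interval -0.48 to 0.10) and IL-10 0.17 (-0.10 to 0.44), neither of which passed. The JQ1 value passed with total counts (-0.37, adjusted p = 0.0327) and on log2(TPM + 1) (-0.34, 0.00848). The interaction with JQ1 was 0.51 ± 0.20 (adjusted p = 0.0302) and was lost in 7 of the 12 fits without 1 library (adjusted p up to 0.103, without Unstimulated library 1).

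LPS acted on most members in the same direction whichever agent was present. In JQ1-treated cells LPS gave log2 fold changes of 4.98 for Cdkn1a, 2.84 for Cdk6 and 1.00 for Cdkn2d, and of -0.54 for Ccnd1, -1.25 for Cdk4, -1.56 for Cdkn1b and -1.41 for Cdkn2c, all of which passed. Ccnd3 was the member that did not, at -0.19 (adjusted p = 0.124), and it passed with total counts (-0.57, adjusted p = 4.42e-07) and on log2(TPM + 1) (-0.44, 0.000196). In IL-10-treated cells LPS gave 5.55 for Cdkn1a, 2.24 for Cdk6, 0.97 for Ccnd3 and 0.79 for Cdkn2d, and -1.36 for Ccnd1, -1.15 for Cdk4, -1.06 for Cdkn1b and -2.61 for Cdkn2c, and Cdkn2b did not pass at 0.06 (95% interval -0.68 to 0.79). Under total-count scaling the last Cdkn2d value was -0.04 (adjusted p = 0.815) and that of Ccnd3 0.14 (0.217).

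The agents were also set against each other in LPS-treated cells. LPS + JQ1 was below LPS + IL-10 for Ccnd1 (-1.25 ± 0.16, adjusted p = 1.99e-14) and Ccnd3 (-0.82 ± 0.11, adjusted p = 4.47e-13), besides Ccnd2, and above it for Cdk6 and Cdkn2b. The difference did not pass for Cdkn1b (-0.23, 95% interval -0.45 to -0.0005, adjusted p = 0.0841), Cdkn2d (-0.15, -0.41 to 0.10) or Cdk4 (-0.02, -0.22 to 0.17). Cdkn2c gave 0.52 (0.03 to 1.01, adjusted p = 0.0665), which passed in edgeR (0.0172) and with total counts (0.80, 0.00304).

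**Figure D4:**
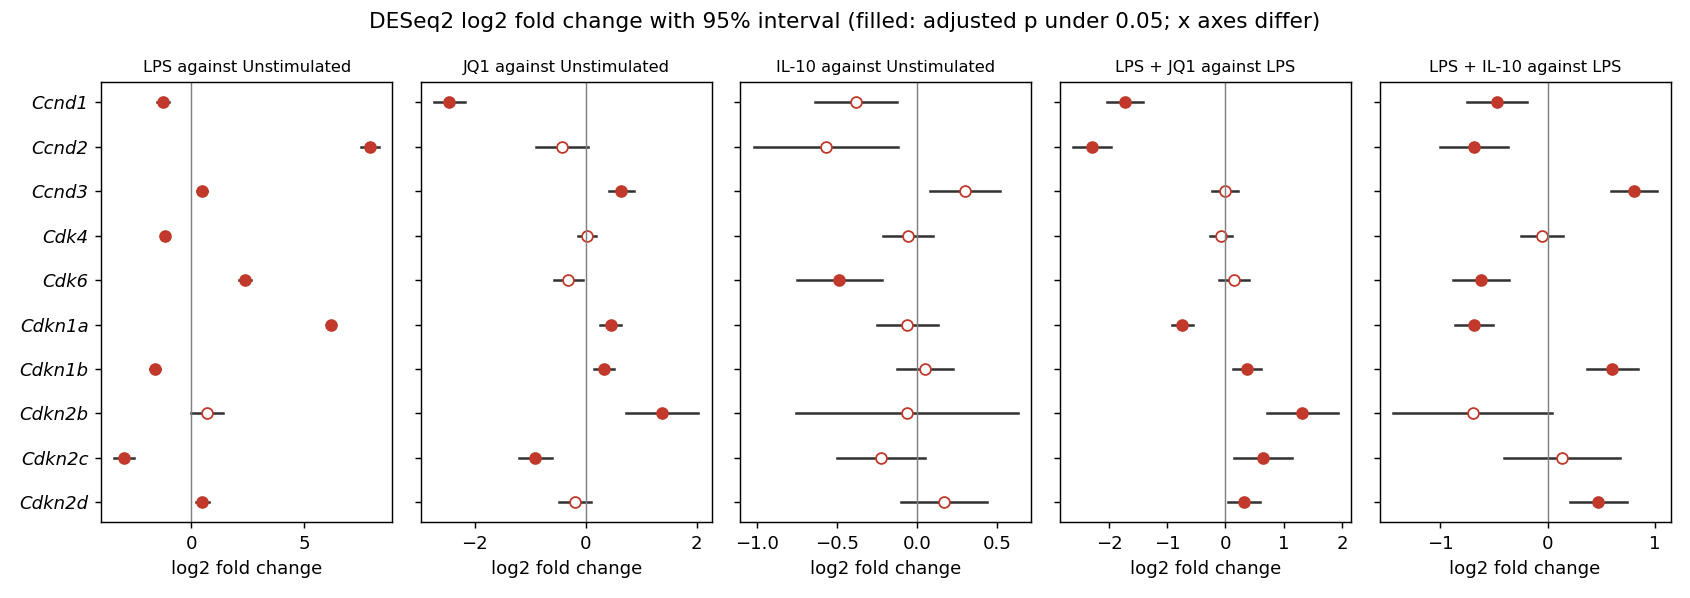
Log2 fold change (x axis, a different range in each panel) of the 10 genes in 5 comparisons, with 95% intervals from DESeq2, filled where the adjusted p was under 0.05. JQ1 and IL-10 both put Ccnd1, Ccnd2 and Cdkn1a lower and Cdkn1b and Cdkn2d higher in LPS-treated cells, and beside these Cdkn2b (1.32) and Cdkn2c (0.65) passed with JQ1 and Ccnd3 (0.81) and Cdk6 (-0.62) with IL-10.

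The choice of scaling moved the median over all genes. With LPS, the median log2 fold change over genes with a mean of at least 10 normalised counts was -0.03 with the median-of-ratios scaling, -0.96 with total counts and -0.70 on log2(TPM + 1), and 49.0%, 20.1% and 23.2% of the passing genes were higher. Relative to that median, Ccnd3 stood at 0.495 and 0.492 and Cdkn2d at 0.522 and 0.519 under the median-of-ratios and total-count scalings, while the sign of both turned. Ccnd2, Cdk6 and Cdkn1a were higher and Ccnd1, Cdk4, Cdkn1b and Cdkn2c lower with LPS under each of the 4 scalings plotted. For the other comparisons the share of passing genes that were higher was, with the median-of-ratios, total-count and log2(TPM + 1) values in that order, 48.0%, 26.8% and 24.6% for JQ1, 64.0%, 61.6% and 84.8% for IL-10, 42.5%, 64.85% and 62.7% for LPS + JQ1 against LPS, 48.7%, 71.1% and 75.3% for LPS + IL-10 against LPS, 47.1%, 25.6% and 30.5% for LPS + JQ1 against JQ1, 49.6%, 21.0% and 22.95% for LPS + IL-10 against IL-10, 42.9%, 61.25% and 57.7% for LPS + JQ1 against LPS + IL-10, 42.6%, 85.4% and 82.8% for the JQ1 interaction and 53.7%, 73.6% and 61.5% for the IL-10 interaction. TMM scaling differed from the median-of-ratios scaling by over 10 points only in the JQ1 interaction (54.7%).

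**Figure D5:**
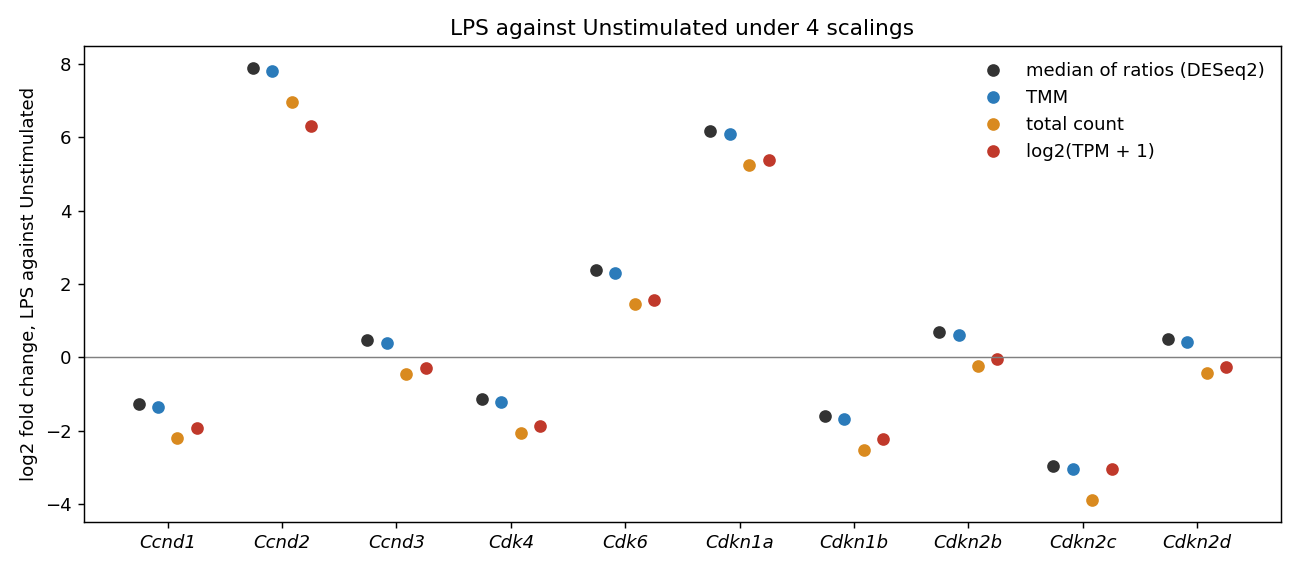
Log2 fold change with LPS (y axis) of the 10 genes under 4 scalings: DESeq2's median of ratios, TMM, total counts and log2(TPM + 1). Ccnd3, Cdkn2b and Cdkn2d are above 0 with the first 2 and below 0 with the last 2, and the other 7 genes keep their sign.

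Genes around this step of the cycle were counted from 5 lists, also chosen with earlier results of these data known. The counts are to be read beside the 64.5% of all genes that passed with LPS (31.6% higher, 32.9% lower), 45.7% with JQ1 (21.9% higher, 23.7% lower) and 57.3% in LPS + JQ1 against LPS (24.4% higher, 32.9% lower). Of 20 S phase and mitosis genes, LPS raised 3 and lowered 17 (median log2 fold change -1.52), JQ1 lowered 19 (-1.32) and raised 0 (0 also at an unadjusted p under 0.05 and in edgeR), and LPS + JQ1 against LPS lowered 16 (-1.40) and raised 0 (likewise 0 and 0, and 1 under total-count scaling). Mki67, which marks cycling cells, was among those that rose with LPS, by 2.24 ± 0.13 (1522 to 7219 mean normalised counts, adjusted p = 5.10e-70). It was lower by -3.24 ± 0.13 in LPS + JQ1 (766, adjusted p = 7.39e-139). Among those that fell were genes of the replication helicase, with log2 fold changes of -2.40 for Mcm2 and -1.75 for Mcm7 with LPS, and of -1.82 for Mcm5, -1.65 for Mcm3 and -1.43 for Mcm2 with JQ1. Mcm7 stood at 286 ± 30.6 mean normalised counts in Unstimulated and 258 ± 19.1 in JQ1 libraries (SD, n = 3). In LPS-treated cells JQ1 gave -2.64 for Mcm5 and -1.90 for Mcm3. The study itself measured BrdU uptake by flow cytometry in Il10-/- BMDMs given JQ1, with no LPS named. It reported that JQ1 left cell cycle progression unaffected. That measure is of cells, and it was not compared with these RNA levels.

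Of 13 RB and E2F genes, LPS raised 6 and lowered 7 (median -1.15), JQ1 raised 2 and lowered 6 (-0.18), and LPS + JQ1 against LPS raised 2 and lowered 4 (-0.07). Under total-count scaling LPS raised 3 of them and LPS + JQ1 against LPS raised 7. Rbl1, which encodes the RB relative p107, rose by 3.38 ± 0.14 with LPS (235 to 2467 mean normalised counts, adjusted p = 1.00e-118), and was lower with JQ1 by -0.92 without LPS and -1.79 with it. Tfdp2 (-2.67) and E2f6 (-2.49) fell with LPS, and E2f6 was higher in LPS + JQ1 than in LPS (1.69). E2f8, which represses E2F targets, was lower with JQ1 by -1.84 without LPS and -3.32 with it, and E2f5 was higher with JQ1 by 0.94.

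Of 12 other G1/S cyclins and kinases, LPS raised 3 and lowered 6 (median -0.41), JQ1 raised 1 and lowered 6 (-0.33), and LPS + JQ1 against LPS raised 3 and lowered 6 (-0.49); under total-count scaling LPS raised 1 and lowered 11. Ccne1, which encodes cyclin E1, the partner of CDK2, rose by 3.17 ± 0.19 with LPS (31.3 to 283 mean normalised counts, adjusted p = 2.05e-60), and was lower with JQ1 by -1.07 without LPS and -2.33 with it. Cdk2 itself fell by -1.92 with LPS. Cdc25a, a phosphatase that activates CDK2, was lower with JQ1 by -0.78 and -0.85. Mnat1, a subunit of the CDK-activating kinase, was lower by -0.80 in LPS + JQ1 than in LPS. Fbxw7, which marks cyclin E for breakdown, gave 0.45 with LPS, a sign that turned to -0.48 under total-count scaling, and rose by 0.55 with JQ1.

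Of 16 p53 target genes other than Cdkn1a, of which 14 or 15 had an adjusted p, LPS raised 7 and lowered 6 (median 0.35), JQ1 raised 4 and lowered 3 (0.04), and LPS + JQ1 against LPS raised 8 and lowered 4 (0.27). The JQ1 count of 7 is near the 45.7% of all genes that passed. Fas, a death receptor, rose by 4.07 with LPS, while Trp53inp1 fell by 3.45 and Polk, a DNA polymerase, fell by 2.27. JQ1 raised Sesn2 by 0.95, Btg2 by 0.78 and Trp53inp1 by 0.77. In LPS-treated cells JQ1 raised Sesn2 by 2.82 ± 0.17 (58.0 to 409 mean normalised counts, adjusted p = 5.62e-62), Trp53inp1 by 2.01 and Polk by 1.39.

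Of 12 FOXO and quiescence genes, LPS raised 5 and lowered 7 (median -0.67), JQ1 raised 8 and lowered 1 (0.62), and LPS + JQ1 against LPS raised 9 and lowered 2 (1.11); under total-count scaling LPS raised 2. The log2 fold changes with LPS were -4.87 for Sesn1, -4.00 for Foxo3 and -1.86 for Foxo4. JQ1 raised Sesn3 by 2.305, Txnip by 1.94 and Tob1 by 1.58, and in LPS-treated cells Klf2 by 2.70, Foxo3 by 2.32 ± 0.14 (99.7 to 494 mean normalised counts, adjusted p = 1.30e-56) and Tob1 by 2.26. Foxo3 encodes a forkhead factor known for its role in quiescence, and Txnip a thioredoxin-binding protein.

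The IL-10 counts over the 5 lists are to be read beside all genes, of which 2.81% passed without LPS and 17.2% with it. Without LPS IL-10 raised 0 in any list and lowered 1, a p53 target (0 and 1 also in edgeR); at an unadjusted p under 0.05 it raised 1 (a p53 target) and lowered 0 RB and E2F genes, 1 other G1/S gene, 1 S phase and mitosis gene, 2 p53 targets and 1 FOXO and quiescence gene. In LPS-treated cells IL-10 raised 0 and lowered 1 of the RB and E2F genes (1 and 2 at an unadjusted p under 0.05, 0 and 2 in edgeR). Of the other G1/S genes it raised 0 and lowered 1 (3 and 1 unadjusted, 1 and 1 in edgeR). Of the S phase and mitosis genes it raised 0 and lowered 3 (0 and 4 unadjusted, 0 and 2 in edgeR). Of the p53 targets it raised 0 and lowered 2 (0 and 2 unadjusted, 0 and 2 in edgeR). Of the 12 FOXO and quiescence genes it raised 2 and lowered 2 (2 and 4 unadjusted, 2 and 2 in edgeR).

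The genes whose pattern was most like each member were found by the root mean square difference of log2 group means over the 6 groups, among the 8377 or 8378 genes with a mean of at least 100 normalised counts. For the cyclins these were Hist1h2bb (0.149) and Hist1h2bk (0.259) for Ccnd1, Upp1 (0.168) and Slco3a1 (0.354) for Ccnd2, and Tmem63a (0.144) and Fbxl5 (0.146) for Ccnd3. For the kinases they were Nagk (0.0353) and Vps39 (0.0581) for Cdk4, and Acot7 (0.184) and Mthfd2 (0.190) for Cdk6. For the Cip/Kip genes they were Il15 (0.0973) for Cdkn1a, and Tmem189 (0.0723) and Msrb1 (0.0918) for Cdkn1b. For the INK4 genes they were Tulp3 (0.213) and Sat1 (0.237) for Cdkn2b, Mical2 (0.140) and Snx33 (0.181) for Cdkn2c, and Map3k6 (0.128) and Golt1b (0.144) for Cdkn2d. This is a likeness of 6 means, described without a test.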

How the data were processed

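RNA from 18 libraries was made with a stranded, ribosomal RNA-depleted kit and sequenced as paired-end reads of 50 bases. Per the labels and the study's methods, the authors aligned reads to mm9 with STAR and quantified RefSeq transcripts with RSEM 1.2.31, whose default ignores strand. The deposited expected counts per gene are RSEM estimates and need not be whole. TPM, also as deposited, was computed by RSEM from the same reads and scales each gene for its length.

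Expected counts were rounded and tested with the DESeq2 1.42.0 Wald test (R 4.3.3) fitted on the 18 libraries together, with no covariate beside the group, with Benjamini-Hochberg adjustment over all genes and a threshold of 0.05. Normalised counts are rounded counts divided by DESeq2 size factors. Of 24485 genes, 7578 were at 0 in every library. Total expected counts ranged from 6781952 to 28289498, and members with few counts, such as Cdkn2b, are the least precise. Replicate libraries differed by more than counting noise (chi-square per degree of freedom 4.137 to 11.208 in 14 of 18 pairs, and 26.105 to 30.486 in the 4 pairs that hold LPS library 3 or LPS + IL-10 library 3). The script was tested on simulated counts.

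Replicate numbers mark the same mouse, per the labels. Correlations of the deviations of same-numbered libraries, over 8555 genes, averaged 0.165 for LPS against Unstimulated, 0.191 for JQ1, 0.366 for IL-10, -0.092 for LPS + JQ1 against LPS, 0.54 for LPS + IL-10 against LPS, 0.135 for LPS + JQ1 against JQ1, -0.053 for LPS + IL-10 against IL-10 and -0.126 for LPS + JQ1 against LPS + IL-10. By the read labels, libraries of mouse 1 came from lane 7 and of mouse 3 from lane 8, while those of mouse 2 were on lane 7 without LPS and lane 8 with it.

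Alternatives were TMM and total-count scaling, edgeR 4.0.16 (quasi-likelihood test), limma 3.58.1 on log2(TPM + 1) and log2(TPM + 0.1), a filter of at least 10 counts in at least 3 libraries, the mouse as a block, the lane as a covariate, a fit of the compared groups alone, and leaving out each library. The members and gene lists were chosen with earlier results of these data known. All members are named. From each list the 3 genes with the largest change among those that passed (mean of at least 100 normalised counts) are named in LPS or JQ1 against Unstimulated and in LPS + JQ1 against LPS. Like genes were compared on log2(normalised count + 1), each centred on its mean over groups. Promoter letters come from RefSeq (GRCm38.p6) and gene positions from GENCODE M1 on mm9. Some values of single genes are not reported here.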

Additional observations from a re-analysis of the deposited data

Results flagged for a closer look

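The effect of JQ1 with LPS differed from that without LPS for 7 of the 10 genes, by the interaction term of the DESeq2 fit, beside 41.5% of all genes. The differences in log2 fold change were 0.73 for Ccnd1, -1.86 for Ccnd2, -0.66 for Ccnd3, 0.46 for Cdk6, -1.19 for Cdkn1a, 1.55 for Cdkn2c and 0.51 for Cdkn2d. For Ccnd3 the difference was -0.10 under total-count scaling and -0.14 on log2(TPM + 1), and neither passed. The Cdk6 and Cdkn2d calls were lost in 8 and 7 of the 12 fits that left out 1 library. Cdkn1b, at 0.05, was not among the 7 and passed at 0.60 under total-count scaling. The median interaction there was 0.50 over genes with a mean of at least 10 normalised counts. The effect of IL-10 differed in the same way for 3 genes, by 0.50 for Ccnd3, -0.62 for Cdkn1a and 0.55 for Cdkn1b, beside 7.44% of all genes, and the Ccnd3 call was lost in 7 of the 12 fits that left out 1 library.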

How the results depend on the processing

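Of 100 log2 fold changes (10 genes in 10 comparisons), 98 kept their direction and side of the threshold with TMM scaling, 99 with the filter on low counts, 97 with edgeR, 97 with the lane, 97 with the mouse as a block, 93 in the fit of the compared groups alone, 80 with total-count scaling, 84 on log2(TPM + 1) and 82 on log2(TPM + 0.1). Leaving out 1 library kept 669 of 720, passed 10 more, lost 41 and turned 0. The block changed the call of 3 values (Cdk6 with JQ1, Ccnd1 with IL-10 and Cdkn2b in LPS + JQ1 against JQ1) and no other.

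With LPS, Ccnd3 turned to -0.47 with total counts, -0.30 on log2(TPM + 1) and -0.32 on log2(TPM + 0.1), and Cdkn2d to -0.44, -0.25 and -0.27 in that order. In LPS + JQ1 against LPS, Ccnd3 turned to 0.36, 0.28 and 0.30, and Cdk4 to 0.30 with total counts. In LPS + IL-10 against IL-10, Cdkn2b turned to -0.40 on log2(TPM + 1) and -0.71 on log2(TPM + 0.1), and Cdkn2d to -0.036 with total counts. In LPS + JQ1 against LPS + IL-10, total counts turned Cdk4 to 0.26 and Cdkn1a to 0.23. The Cdk4 interaction with JQ1 turned to 0.45, 0.38 and 0.39 in the first order. Relative to the median over genes with a mean of at least 10 normalised counts, it was -0.047 with median-of-ratios and -0.048 with total-count scaling. For Cdkn2b in LPS + IL-10 against IL-10, total counts gave -0.78, which did not pass (adjusted p = 0.0533). Its values on log2(TPM + 1) and log2(TPM + 0.1) differed in the pseudocount alone. The cause of the turn was not tested.

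In the fit of the compared groups alone, 4 calls were lost: Cdkn2c in LPS + JQ1 against LPS (adjusted p = 0.0891), Cdkn2d in LPS + IL-10 against LPS (0.0991), the Cdkn2d interaction with JQ1 (0.0530) and the Ccnd3 interaction with IL-10 (0.0612). In the same fit 3 calls were gained: Cdk6 lower with JQ1 (0.0105), Ccnd1 lower with IL-10 (0.0328) and Cdk6 higher in LPS + JQ1 than in LPS (0.0233). The number of members changed by IL-10 alone was 0 in edgeR, 0 on log2(TPM + 1) and 0 on log2(TPM + 0.1), 2 with the mouse as a block, 2 with the lane and 2 with the compared groups alone, and 0 to 3 when 1 library was left out (0 without Unstimulated library 1 or 3 or IL-10 library 1 or 2, and 3 without IL-10 library 3). LPS + JQ1 against LPS + IL-10 changed 8 members with total counts, beside 5 with the median-of-ratios scaling. Of all genes, 8100 and 7927 passed in that order. The median log2 fold change over genes with a mean of at least 10 normalised counts was 0.20 and -0.08. The cause was not tested. Leaving out 1 library gave 9 to 10 members with LPS, 6 to 7 with JQ1, 5 to 7 in LPS + JQ1 against LPS, 6 to 7 in LPS + IL-10 against LPS, 8 in LPS + JQ1 against JQ1 and 9 in LPS + IL-10 against IL-10.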
